A study of Mus musculus with 444 samples.

Results

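The genes examined here were 9 smooth muscle contractile genes and the oxytocin receptor gene, followed in single epithelial cells of the mouse mammary gland. The members were Oxtr, Mylk, Myl9, Myh11, Acta2, Actg2, Tagln, Cnn1, Smtn and Lmod1. They were listed by name, matched through the Entrez GeneID of the count tables, and all 10 were found among the 25136 genes kept. Cells came from the total epithelium of FVB/NJ mice, an inbred strain with no transgene or treatment named in the labels, at puberty (221 cells) and in adulthood (223 cells). The labels give the stage and no age. The deposited tables are named for 4 weeks (puberty) and 10 weeks (adult), and the methods of the study give another age for puberty. According to the study, the epithelium was sorted from pooled mice, and blood and endothelial cells were removed. The cells were also stained for CD24 and CD29. The study describes total epithelium profiled on another platform as CD24-positive. Each cell was captured on a Fluidigm C1, a microfluidic device with 1 cell per chamber. The labels name no animal, litter or sort, so each stage counted as 1 sample. No difference between the stages therefore has a replicate check, and no test was made.

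Myoepithelial cells form the outer, basal layer of the mammary ducts and alveoli and combine an epithelial keratin network with the contractile apparatus of smooth muscle. In milk ejection, oxytocin binds its G protein-coupled receptor on these cells, calcium is released inside the cell, and calcium-bound calmodulin activates myosin light chain kinase. The kinase phosphorylates the regulatory light chain of myosin, and myosin then pulls on smooth muscle actin filaments, which carry regulators such as calponin. The same genes are used by vascular smooth muscle and, in part, by pericytes and activated fibroblasts.

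Retained cells were those with at least 100000 read pairs and 1500 genes, which left 171 pubertal and 152 adult cells with 100883 to 1354378 read pairs each. Counts were thinned to 100000 read pairs per cell, so 1 read equals 10 CPM, counts scaled to a common total. Intervals are 95% exact and cover counting error only, since reads without molecular identifiers include PCR copies of the same molecule. The adult cells that their titles number 48 to 188 (107 retained) stood apart from the other adult cells (45 retained), with reads of the small nuclear RNA gene Rn7sk in all 107 against 8 of 45. Rn7sk also had reads in 35 of the 171 pubertal cells, which were not split. The split was drawn from that gene in earlier work on these data. Values are given against both sets where they differ. The labels do not say what the numbers mean.

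Many smooth muscle genes are known to be controlled through the CArG box, the binding sequence of serum response factor, and the start regions of the genes are shown for that reason. RefSeq start windows (GRCm38.p6, 250 bases before to 50 after the start) were matched for 7 members, namely Oxtr, Mylk, Myl9, Acta2, Cnn1, Smtn and Lmod1. The start in a window was not always the outer end of the gene. The Mylk (chr16:34784700-34784999) and Oxtr (chr6:112489776-112490075) windows lie wholly inside their genes, and the starts in the Acta2, Myl9 and Cnn1 windows lie inside their genes. Other starts of these genes were not searched, and distances count from the start in the window. The Myl9 window held an exact CArG box, CCTAATAAGG, 161 bases before the start, and it was the single exact match in the 7 windows. Of all 32851 windows of this length, 535 (1.63%) held an exact box. With 1 mismatch allowed, 3 member windows held a match (Acta2, Myl9 and Lmod1), against 21.1% of all windows. The motif reads alike on both strands. The windows with a match are shown 5′ to 3′ on the strand of the gene, with exact and 1-mismatch matches in capitals, as Acta2 (chr19:34255324-34255623, minus strand), Myl9 (chr2:156775214-156775513, plus strand) and Lmod1 (chr1:135324563-135324862, plus strand).
Acta2: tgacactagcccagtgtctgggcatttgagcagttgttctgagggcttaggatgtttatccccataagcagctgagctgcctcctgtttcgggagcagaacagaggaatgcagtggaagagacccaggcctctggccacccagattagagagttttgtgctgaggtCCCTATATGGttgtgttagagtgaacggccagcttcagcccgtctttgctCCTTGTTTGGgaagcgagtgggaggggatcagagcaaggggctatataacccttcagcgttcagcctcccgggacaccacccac
Myl9: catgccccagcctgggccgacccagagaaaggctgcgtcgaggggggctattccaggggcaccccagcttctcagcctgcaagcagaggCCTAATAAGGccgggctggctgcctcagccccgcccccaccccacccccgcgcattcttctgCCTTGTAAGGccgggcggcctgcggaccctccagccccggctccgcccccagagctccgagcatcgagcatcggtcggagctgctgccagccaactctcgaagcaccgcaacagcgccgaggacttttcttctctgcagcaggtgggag
Lmod1: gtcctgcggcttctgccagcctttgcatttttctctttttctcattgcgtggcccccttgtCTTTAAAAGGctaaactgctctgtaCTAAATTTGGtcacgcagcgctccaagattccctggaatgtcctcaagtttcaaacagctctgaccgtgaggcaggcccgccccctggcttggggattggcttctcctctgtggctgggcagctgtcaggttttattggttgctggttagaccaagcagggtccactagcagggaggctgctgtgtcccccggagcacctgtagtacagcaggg
The Acta2 matches began 84 and 34 bases before the start, the second Myl9 match 99 bases before it, and the Lmod1 matches 189 and 164 bases before it. A match describes letters in the window only.

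To look at the genes in the cells that normally carry them, cells were called basal-marked when Krt14, a keratin of the basal layer, or Trp63, the transcription factor of basal epithelia, reached 100 CPM. This held for 64 of the 171 retained cells at puberty (37.4%, 30.2 to 45.1%) and for 100 of the 152 in the adult (65.8%, 57.7 to 73.3%). The share was 75.7% (81 of 107) among adult cells 48 to 188 and 42.2% (19 of 45) among the other adult cells. The basal-marked cells were not a pure basal population by RNA. At least 3 of 8 basal markers were detected in 63 of 64 pubertal and 100 of 100 adult basal-marked cells. The 8 include Krt14 and Trp63, by which the cells were chosen, so this count was in part fixed by the choice. Krt8 or Krt18, the luminal keratins, reached 100 CPM in 76.6% and 91.0% of the basal-marked cells.

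The contractile genes were concentrated in the basal-marked cells at both stages. The summed level of the 9 contractile genes had a median of 8835 CPM over the pubertal basal-marked cells (20 to 47730 CPM) and 16275 CPM over the adult ones (150 to 93830 CPM). In the other retained cells the medians were 10 CPM at puberty and 120 CPM in the adult. The ratio of basal-marked over other cells was largest for Actg2 (log2 ratio 7.08 at puberty and 6.75 in the adult) and Cnn1 (6.17 and 6.13). It was smallest for Lmod1 at puberty (2.75) and for Smtn in the adult (1.11). The adult order differed between the sets. Actg2 (6.24) was highest within adult cells 48 to 188 and Mylk (7.15) within the other adult cells, and the ratio of Oxtr was 1.44 in the first set and 6.66 in the second. The median was 425 CPM in the 26 other cells among adult cells 48 to 188, each of which held at least 30 CPM, and 40 CPM in the 26 other cells outside that set. Acta2 had a read in 96.2% and Myh11 in 92.3% of the 26 other cells numbered 48 to 188. A single read in an adult cell was therefore treated as background, and levels or shares of cells with 10 reads (100 CPM) are given beside shares with any read.

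**Figure D1:**
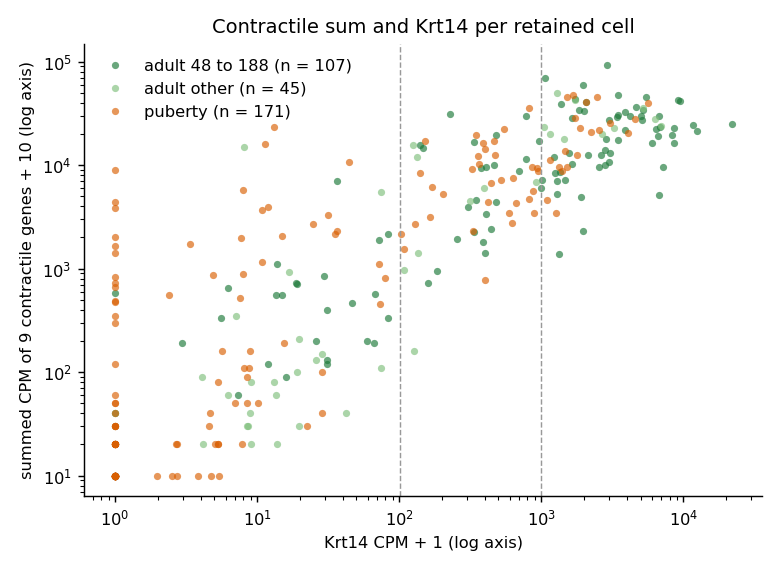
Summed CPM of the 9 contractile genes against Krt14 CPM in each of the 323 retained cells, both on log axes, coloured by stage and adult set, with dashed lines at 100 and 1000 CPM of Krt14. Cells with more Krt14 had a higher contractile sum at both stages, and 8 pubertal and 3 adult cells with Acta2 at 1000 CPM or more lay outside the basal-marked cells.

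Per kilobase of gene, the levels in basal-marked cells spanned a wide range. At puberty the order was Acta2 (3431 CPM per kilobase), Tagln (1909), Myl9 (842), Actg2 (276), Cnn1 (255), Mylk (105), Myh11 (88.3), Smtn (46.9), Oxtr (46.4) and Lmod1 (7.37). In the adult it was Acta2 (4544 CPM per kilobase), Tagln (3646), Myl9 (1047), Cnn1 (602), Myh11 (277), Actg2 (238), Mylk (111), Oxtr (58.1), Smtn (35.7) and Lmod1 (24.5). The top 3 places and the last were held by the same genes at both stages, while Myh11 stood below Mylk and Actg2 at puberty and above both in the adult sums. Within adult cells 48 to 188, Myh11 (263 CPM per kilobase) stood below Actg2 (278) and above Mylk (84.9). Counting intervals overlapped only for Smtn and Oxtr at puberty, but the quartile ranges over cells overlapped for all 9 neighbouring pairs at each stage, so the order describes the sums rather than single cells.

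**Figure D2:**
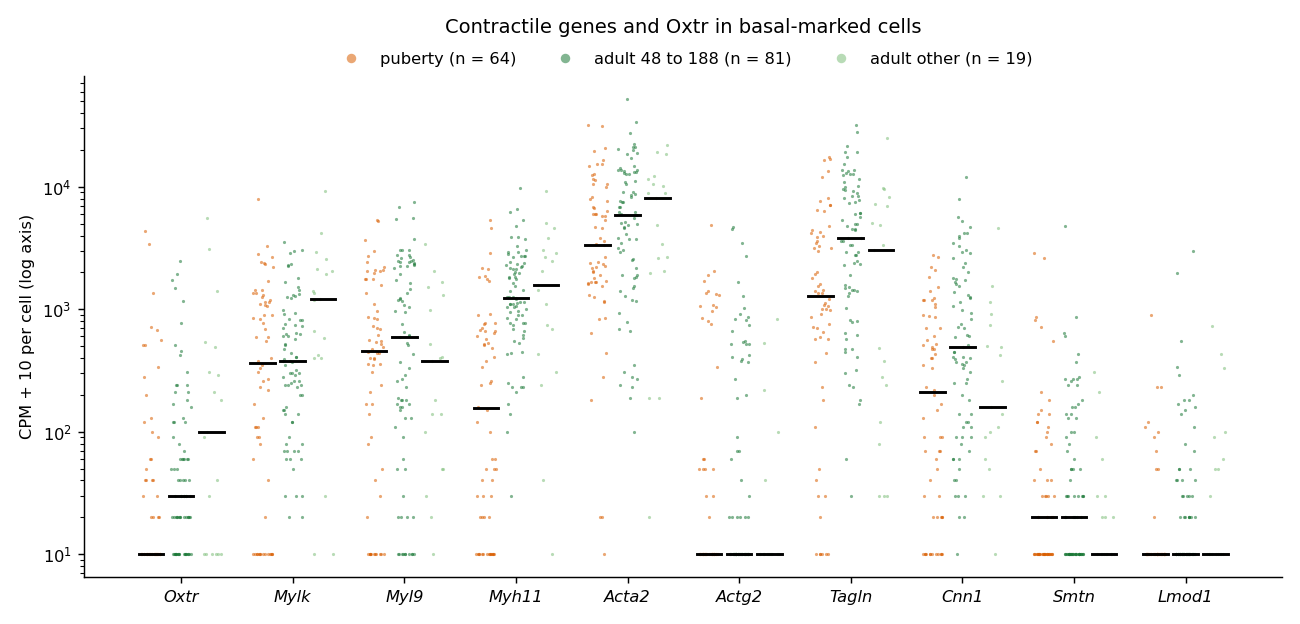
CPM + 10 on a log axis for each of the 10 genes in every basal-marked cell, with 64 pubertal cells, 81 adult cells numbered 48 to 188 and 19 other adult cells, and black bars at the medians. The Myh11 median lies at 145 CPM at puberty against 1230 and 1580 CPM in the adult sets, while the 3 groups of points overlap for every gene.

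Oxtr (GeneID 18430, chr6:112473683-112491035), the receptor through which oxytocin triggers contraction, was uneven among cells. In pubertal basal-marked cells it ranged from 0 to 4370 CPM with a median of 0 and an upper quartile of 50 CPM. In adult basal-marked cells it ranged from 0 to 5590 CPM with a median of 30 and an upper quartile of 162.5 CPM. The ranges overlapped almost wholly. Reads were found in 28 of 64 pubertal (43.8%, 31.4 to 56.7%) and 74 of 100 adult basal-marked cells (74.0%, 64.3 to 82.3%), against 8.41% and 32.7% of the other cells. The depths behind these shares before thinning were medians of 360859 and 303040 read pairs in basal-marked cells and 292417 and 393880 in other cells. Without thinning the shares in basal-marked cells were 53.1% and 83.0%. With at least 10 reads they were 20.3% and 31.0%, against 1.87% and 3.85% of the other cells.

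The summed level of Oxtr did not carry a stage difference that held across the adult sets. It was 212 CPM (201 to 223) at puberty and 265 CPM (255 to 276) in the adult, a log2 ratio of puberty over adult of −0.32 (−0.42 to −0.23). Against adult cells 48 to 188 (176 CPM) the ratio was 0.26, and against the other adult cells (644 CPM, 19 cells) it was −1.60. A single cell held 32.2% of the pubertal reads and another held 21.1% of the adult reads. When the highest cell of both stages was left out, the ratio was −0.53. Outside the basal-marked cells, 1 adult cell with 1110 CPM of Oxtr, 70 CPM of Krt14 and 5420 CPM of Krt18 held 61.3% of the reads.

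Mylk (GeneID 107589, chr16:34745199-35002436), the calcium- and calmodulin-dependent kinase of the myosin light chain, had nearly the same sum at both stages but was found in fewer pubertal cells. Its level ranged from 0 to 7960 CPM with a median of 355 CPM at puberty, and from 0 to 9260 CPM with a median of 405 CPM in the adult. The cells of both stages covered nearly the same range. Reads were found in 78.1% of pubertal and 98.0% of adult basal-marked cells, and at least 10 reads in 68.8% and 81.0%. The sums were 823 CPM (801 to 846) and 864 CPM (846 to 882), a log2 ratio of −0.07. The ratio was −0.35 without thinning and −0.65 in cells with at least 200000 read pairs and 2500 genes. The adult sets differed from each other, since the ratio was 0.31 against adult cells 48 to 188 and −1.06 against the other adult cells. The locus also encodes telokin, a short product of the same gene, and counts per gene do not separate it from the kinase. Mylk overlaps 2 long non-coding genes of the opposite strand (1700119H24Rik and E130310I04Rik).

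Myl9 (GeneID 98932, chr2:156775408-156781657), the regulatory light chain that the kinase phosphorylates, also differed little. It ranged from 0 to 5350 CPM with a median of 450 CPM at puberty and from 0 to 7560 CPM with a median of 460 CPM in the adult. The medians lay side by side and the upper quartile was higher in the adult (1955 against 1397.5 CPM). In sum it reached 911 and 1134 CPM, so that the log2 ratio was −0.31 (−0.36 to −0.27), with −0.44 against adult cells 48 to 188 and 0.39 against the other adult cells.

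Myh11 (GeneID 17880, chr16:14194527-14292188), the smooth muscle myosin heavy chain, was lower at puberty in its sum, its median and its share of cells. At puberty it ranged from 0 to 5390 CPM with a median of 145 CPM, and in the adult from 0 to 9790 CPM with a median of 1250 CPM. The lower adult quartile (717.5 CPM) lay above the upper pubertal quartile (655 CPM), although the full ranges overlapped. At least 10 reads were found in 53.1% of pubertal and 96.0% of adult basal-marked cells, against 5.61% and 13.5% of the other cells. The sums were 586 CPM (567 to 605) and 1836 CPM (1809 to 1862), a log2 ratio of −1.65 (−1.70 to −1.60). The ratio was −1.57 against adult cells 48 to 188 and −1.92 against the other adult cells.

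The sums of the non-muscle myosin heavy chains stood higher at puberty. Myh9, which serves cell shape and division in most cells, stood at 1420 CPM at puberty and 661 CPM in the adult (log2 ratio 1.10), and Myh10, its close relative, at 65.8 and 35.8 CPM (0.86). Reads of Myh10 were found in fewer pubertal than adult basal-marked cells (26.6% against 34%). Its sums leaned on few cells, with 1330 and 1170 CPM in single pubertal cells and 1390 CPM in an adult cell. Within each basal-marked cell, the share of Myh11 in the reads of Myh11, Myh9 and Myh10 had a median of 7.68% (quartiles 0.528 to 39.2%) at puberty and 68.4% (53.5 to 83.2%) in the adult. Myh11 outnumbered Myh9 and Myh10 together in 10 of 64 pubertal and 80 of 100 adult cells. In adult cells 48 to 188 the median was 67.7% and in the other adult cells 80.1%. A share within a cell shows an unequal difference between the stages and not which of the genes differs.

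Acta2 (GeneID 11475, chr19:34240336-34255585), alpha smooth muscle actin, was the most abundant member and was found in nearly all basal-marked cells of both stages. It ranged from 0 to 31900 CPM with a median of 3360 CPM at puberty and from 10 to 51950 CPM with a median of 5845 CPM in the adult. Adult cells lay higher on balance, with wide overlap. The sums were 6108 CPM (6047 to 6169) and 8089 CPM (8033 to 8145), a log2 ratio of −0.41, with −0.42 and −0.35 against the adult sets. Cells with Acta2 at 1000 CPM or more numbered 63 at puberty and 88 in the adult, and 76.2% and 90.9% of them also held Krt8 or Krt18 at 100 CPM.

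Actg2 (GeneID 11468, chr6:83512909-83536251), gamma smooth muscle actin, was restricted to a part of the cells. It had a median of 0 at both stages and reached 4880 CPM at puberty and 4680 CPM in the adult. Reads were found in 26 of 64 (40.6%) and 43 of 100 (43.0%) basal-marked cells, against 7.48% and 13.5% of the other cells. At least 10 reads were found in 16 of 55 pubertal and 28 of 85 adult basal-marked cells with Acta2 at 1000 CPM or more. Summed levels were 362 and 313 CPM, which gave a log2 ratio of 0.21 (0.13 to 0.29). The ratio was −0.02 against adult cells 48 to 188 and 2.03 against the other adult cells, of which 5 of 19 had a read. It turned to −0.70 in cells with at least 200000 read pairs and 2500 genes and to −1.17 in cells chosen by Trp63 at 10 CPM. The share of Acta2 and Actg2 in all reads of these genes and of the cytoplasmic actins Actb and Actg1 had a median of 20.9% at puberty and 41.3% in the adult. Actb itself stood at 17722 and 8445 CPM (log2 ratio 1.07). The actins are close in sequence, and the counting could have divided reads among them.

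Tagln (GeneID 21345, chr9:45929628-45936058), or transgelin, an actin-binding protein of smooth muscle, was second only to Acta2 per kilobase. It ranged from 0 to 17510 CPM with a median of 1275 CPM at puberty and from 20 to 32100 CPM with a median of 3585 CPM in the adult. The adult median was close to the upper pubertal quartile (3905 CPM). The sums were 3028 and 5783 CPM, a log2 ratio of −0.93 (−0.96 to −0.91), and −1.01 and −0.56 against adult cells 48 to 188 and the other adult cells. Tagln2, its non-muscle relative, lay lower at puberty by a like amount (−0.99), so that the median share of Tagln in both was 96.0% at puberty and 95.4% in the adult. Tagln overlaps Pcsk7, a protein-coding gene of the opposite strand.

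Cnn1 (GeneID 12797, chr9:22099221-22109221), calponin, which restrains myosin on actin filaments, ranged from 0 to 2790 CPM with a median of 200 CPM at puberty. In the adult it ranged from 0 to 12120 CPM with a median of 425 CPM. The upper adult quartile (1540 CPM) was above that at puberty (740 CPM). The sums were 507 and 1197 CPM, a log2 ratio of −1.24 (−1.30 to −1.18). The difference was seen against adult cells 48 to 188 (−1.40) and was small against the other adult cells (−0.22).

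Lmod1 and Smtn were the least abundant contractile genes. Lmod1 (GeneID 93689, chr1:135324813-135368065), leiomodin, which nucleates actin filaments, had reads in 11 of 64 pubertal and 44 of 100 adult basal-marked cells, against 6.54% and 26.9% of the other cells. Lmod1 reached 10 reads in 5 of 55 pubertal and 16 of 85 adult basal-marked cells with Acta2 at 1000 CPM or more. It had any read in 10 and 41 of these. Its level ranged from 0 to 890 CPM at puberty and from 0 to 3000 CPM in the adult, with medians of 0. The sums were 29.1 and 96.5 CPM, a log2 ratio of −1.70 (−1.97 to −1.50), with −1.71 and −1.66 against the adult sets. A single cell held 47.8% of the pubertal reads and another 31.1% of the adult reads, and without these the ratio was −2.06. Smtn (GeneID 29856, chr11:3517522-3539292), smoothelin, an actin-binding protein of contractile smooth muscle, had a median of 10 CPM at both stages and reached 2860 and 4770 CPM. Its sums were 159 and 121 CPM, a log2 ratio of 0.39, and the single highest cell held 28.1% and 39.4% of the reads. The ratio was 0.17 against adult cells 48 to 188 and 2.08 against the other adult cells.

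**Figure D3:**
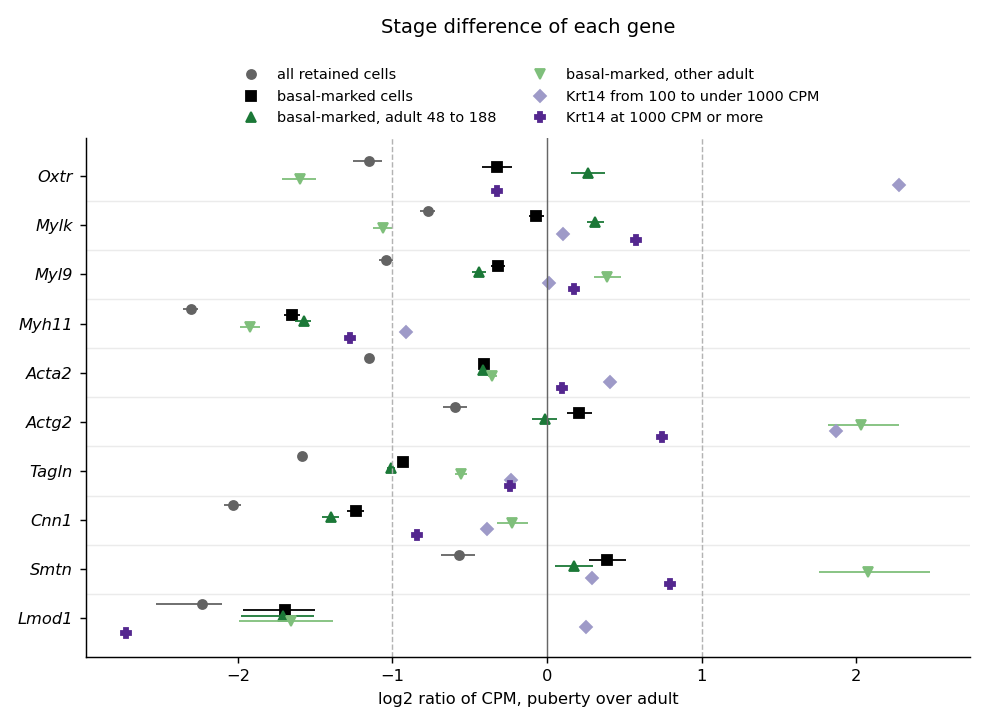
Log2 ratio of CPM, puberty over adult, for each gene in all retained cells, in basal-marked cells, in basal-marked cells against each adult set, and within 2 ranges of Krt14 (33 and 31 cells, then 20 pubertal and 68 adult cells), with lines for exact counting intervals where these were computed and dashed lines at 2-fold. Myh11, Cnn1 and Tagln lie left of 0 at every point, while Oxtr, Actg2 and Smtn spread to both sides.

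Over all retained cells, 7 of the 10 members were at least 2-fold lower at puberty, against 14.3% of the 7806 genes that reached 20 CPM in 1 stage, and 0 were at least 2-fold higher, against 19.9%. The median log2 ratio of the members was −1.15 against 0.09 for all these genes. The member median was −1.34 against adult cells 48 to 188 and −0.56 against the other adult cells. Against the other adult cells, Myh11, Oxtr, Lmod1 and Mylk were at least 2-fold lower (20.2% of genes). Actg2 (1.85), Smtn (1.00) and Myl9 (0.12) were above 0 there, and 7 of 10 members were below the median of all genes. In such sums, fewer basal cells and less RNA per cell cannot be told apart. Within basal-marked cells, 3 of 10 members (Myh11, Cnn1 and Lmod1) were at least 2-fold lower, against 19% of 7657 genes, and 0 were at least 2-fold higher, against 25.3%. With 10 members, 3 lower genes are close to the background share. The median of the members was −0.36 and that of all genes 0.11. All 10 members were below the median of all genes over all retained cells and 8 of 10 within basal-marked cells. Against adult cells 48 to 188 alone, 4 of 10 members were at least 2-fold lower (18.8% of genes) and 0 at least 2-fold higher (27.7%). Against the other adult cells, 4 were lower (22.4%) and 2 higher (40.8%). The lower members were Myh11, Cnn1, Tagln and Lmod1 against the first set and Myh11, Lmod1, Oxtr and Mylk against the second. TMM scaling shifted the ratios within basal-marked cells by 0.14, to −0.03 for the median of all genes and −0.50 for that of the members, and then 4 of 10 members were at least 2-fold lower against 21.5% of genes.

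The basal-marked cells of the stages also differed in their level of Krt14, which stood at 962 CPM at puberty and 2911 CPM in the adult. Within a range of Krt14 the stage difference was smaller for the median of the members, but not for every member. For 33 pubertal and 31 adult cells with Krt14 from 100 to under 1000 CPM, the median ratio of the members was 0.18 against 0.42 for all genes, and 0 members were at least 2-fold lower against 22.2% of genes. For 20 pubertal and 68 adult cells with Krt14 at 1000 CPM or more, the medians were −0.07 for both, and 2 members (Myh11 and Lmod1) were at least 2-fold lower against 31.1% of genes. Acta2 had ratios of 0.40 and 0.09 in these ranges and Tagln −0.23 and −0.24. Lmod1 turned from 0.25 in the lower range to −2.72 in the upper. Oxtr had a ratio of 2.28 in the lower range, where a single pubertal cell held 4370 CPM. The ranges did not make Krt14 equal, since in the upper range it reached 5622 CPM at puberty and 21877 CPM in the adult. In cells chosen by Trp63 at 10 CPM alone, whatever their Krt14 (38 pubertal and 56 adult), the median of the members was −1.05 and 5 of 10 were at least 2-fold lower (Lmod1, Tagln, Cnn1, Myh11 and Actg2), against 22.5% of genes.

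Myh11 was lower at puberty in both ranges, with ratios of −0.91 and −1.27. Cnn1 and Tagln were also below 0 in both. The share of Myh11 in the myosin heavy chain reads kept a difference too, with medians of 10.9% and 62.7% for puberty and adult in the lower range and 33.5% and 76.2% in the upper. The adult medians in the lower range were 66.5% in cells 48 to 188 and 36.6% in the 8 other adult cells, and 68.2% and 82.9% in the upper range. For actin the medians were 20.0% and 26.6% in the lower range and 35.3% and 52.0% in the upper. In the lower range the upper pubertal quartile of the myosin share (38.9%) lay just above the lower adult quartile (36.6%), and in the upper range it lay below it (49.3% against 58.8%).

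**Figure D4:**
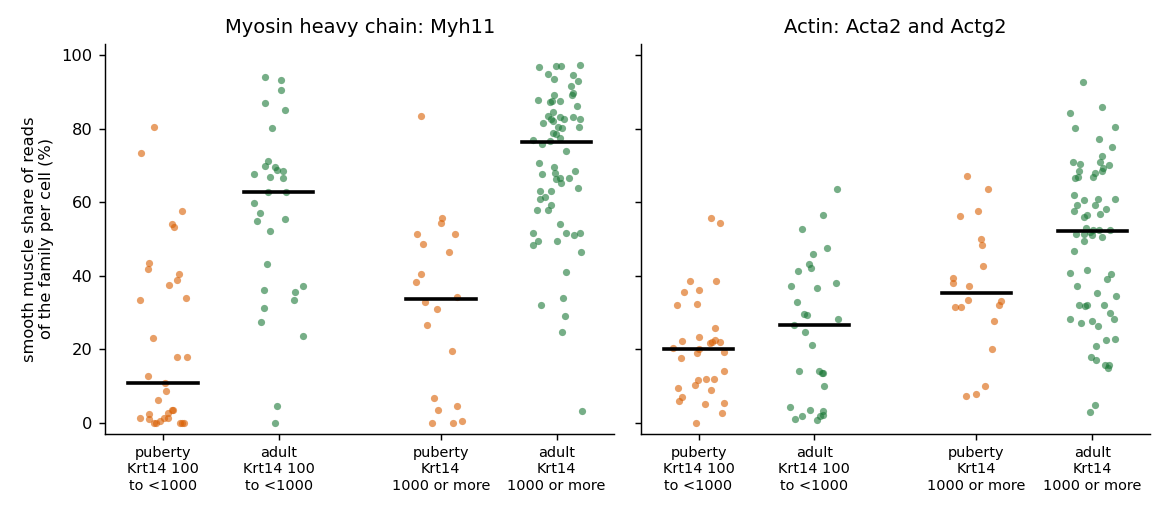
Share of smooth muscle transcripts in the reads of the myosin heavy chain family (Myh11 of Myh11, Myh9 and Myh10) and of the actin family (Acta2 and Actg2 of these with Actb and Actg1) in each basal-marked cell, by stage and range of Krt14 CPM, with bars at the medians. The Myh11 medians are 10.9% and 62.7% for puberty and adult in the lower range and 33.5% and 76.2% in the upper range.

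The number of members with a read in a cell described how complete the set was. Pubertal basal-marked cells had a median of 7 of the 10 genes (quartiles 5 to 8) and adult ones 8 (7 to 9). Cells with 4 or fewer numbered 14 of 64 (21.9%) at puberty and 0 of 100 in the adult, where a count of 0 was read as an upper limit of 3 cells (3%). With at least 10 reads per gene, cells with 4 or fewer numbered 23 of 64 (35.9%) at puberty and 14 of 100 (14.0%) in the adult, of which 10 were among the 81 cells numbered 48 to 188. All 10 genes were found in 1 pubertal and 13 adult cells. In the other cells the medians were 1 and 4, and the adult value came from cells 48 to 188, where it was 5.5 against 2 in the other adult cells. With at least 10 reads per gene the medians in basal-marked cells were 5 and 6.

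**Figure D5:**
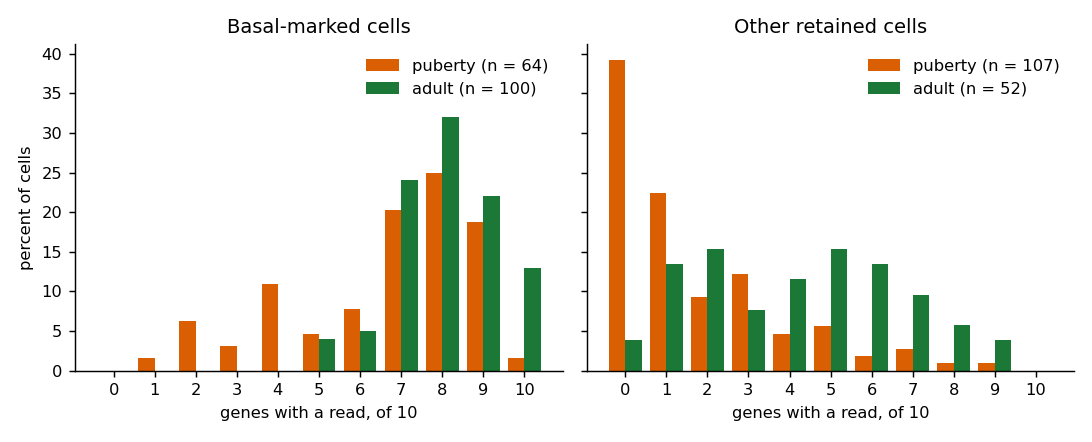
Percent of cells by the number of the 10 genes with at least 1 read after thinning, in basal-marked cells (64 pubertal and 100 adult) and in other retained cells (107 and 52). Cells with 4 or fewer genes make up 21.9% of the pubertal and 0% of the adult basal-marked cells at 1 read per gene, against 35.9% and 14.0% at 10 reads, which the plot does not show.

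Across basal-marked cells the contractile genes varied together to a moderate degree. Pearson correlations of log2(CPM + 1) had a median of 0.34 over the 36 contractile pairs in 64 pubertal cells and 0.23 in 100 adult cells. The closest pair was Acta2 with Tagln in the adult (0.68). At puberty the closest pair was Myh11 with Mylk (0.66), which stood at 0.09 in the adult (0.27 in the 81 cells numbered 48 to 188), followed by Myh11 with Tagln (0.59), and Acta2 with Tagln stood at 0.54. The correlations of Oxtr with the contractile genes had a median of 0.27 at puberty, below that among the contractile pairs, and of 0.28 in the adult, above it. In the 81 adult cells numbered 48 to 188 the median of Oxtr was 0.27, below the 0.29 among the contractile pairs. The correlation of Oxtr with Acta2 was 0.27 at puberty and 0.38 in the adult, and that with Myh11 0.45 and 0.33. The cells share libraries and depth by stage, the counts of low genes are sparse, and these values are descriptions.

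In all, 2911 genes, members among them, were detected in at least 30% of the basal-marked cells of each stage. Those outside the members that were most like the mean of the 9 contractile genes were Tpm2, Krt14, Ifitm3, Postn, Gm5526, Gm10080, Gm8894, Rbpms, Sparc and Myl6. The lower of the correlations at the 2 stages was 0.65 for Tpm2, a muscle tropomyosin, 0.63 for Krt14, and between 0.38 and 0.47 for the rest. Postn and Sparc encode matrix proteins, and Gm5526, Gm10080 and Gm8894 are annotated as pseudogenes, whose reads may be shared with a parent gene. For Oxtr the first 5 were Cald1 (0.37), an actin regulator of smooth muscle, Postn (0.32), Cxcl14 (0.29), Krt14 (0.29) and Marcksl1 (0.27).

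The other genes of the contractile pathway were taken from lists and described within basal-marked cells at 20 CPM or more in 1 stage. Of 14 partners of the thin and thick filaments, 2 were at least 2-fold lower and 1 at least 2-fold higher at puberty, with a median of −0.45. Both counts are under the shares over all genes (19% lower and 25.3% higher). Against adult cells 48 to 188, 3 were lower and 1 higher (18.8% and 27.7% of all genes), with a median of −0.39. Against the other adult cells, 0 were lower and 2 higher (22.4% and 40.8%), with a median of 0.03. Synpo2, an actin-bundling protein, stood at 27.3 and 74.9 CPM (log2 ratio −1.42) and Tpm2 at 808 and 1937 CPM (−1.26). Against adult cells 48 to 188 and the other adult cells Synpo2 had ratios of −1.67 and 1.06, and Tpm2 −1.33 and −0.92. Ilk, integrin-linked kinase, stood at 523 and 204 CPM (1.35) and Vcl, vinculin, at 657 and 554 CPM (0.25). The single muscle tropomyosin at least 2-fold lower was Tpm2, while Tpm1 had a ratio of −0.53. That of Tpm1 was −0.69 against adult cells 48 to 188 and 0.50 against the other adult cells.

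Downstream of the receptor, 1 of 12 signalling genes was at least 2-fold lower and 4 were at least 2-fold higher at puberty, with a median of 0.28. With 12 genes, 4 higher ones are close to the 25.3% of all genes. The median was 0.51 against adult cells 48 to 188 and 0.77 against the other adult cells. Plcb1, a phospholipase C that acts below the receptor's G protein, stood at 13.6 and 42.7 CPM (−1.58). Gna11, an alpha subunit of that G protein class, stood at 44.4 and 86.1 CPM (−0.94). Against adult cells 48 to 188 and the other adult cells Plcb1 had ratios of −1.11 and −2.71, and Gna11 −1.09 and −0.08. Kcnmb1, a subunit of the calcium-activated potassium channel of smooth muscle, stood at 106 and 9.7 CPM (3.32), with reads in 17.2% and 9% of cells. Cacna1c, a voltage-gated calcium channel, stood at 22.2 and 2 CPM (2.95), but its pubertal reads came from 1.56% of cells, a single cell.

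Of 8 genes of serum response factor and its partners, 1 was lower and 1 higher, with a median of −0.32, and both counts are under the shares over all genes (19% and 25.3%). Smad3 had a ratio of −1.37 and Yap1 −0.52, while Fhl1 had 1.12 and Tead1 0.63. Of these genes Tead1 changed direction, with 0.96 against adult cells 48 to 188 and −0.28 against the other adult cells. Myocd, the coactivator that drives smooth muscle genes in muscle, was at 0.156 and 0.1 CPM and so close to undetected in these basal-marked cells.

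Of 10 non-muscle counterparts, 0 were at least 2-fold lower and 3 at least 2-fold higher at puberty (Tpm3 at 1.11, Myh9 at 1.10 and Actb at 1.07), with a median of 0.53. The median was 0.56 against adult cells 48 to 188 and 1.12 against the other adult cells. Tagln2 (−0.99) and Cnn3 (−0.30) had the lowest ratios. Against 25.3% of all genes that were at least 2-fold higher, 3 of 10 is close to the background share.

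Markers of other cells that use the contractile genes were scored over the same cells. At least 1 of 8 pericyte and vascular muscle markers had a read in 22 of 64 pubertal and 31 of 100 adult basal-marked cells, and at least 2 in 7 and 2 cells. Their summed level ranged from 0 to 930 CPM and from 0 to 3410 CPM, with medians of 0. The defining pericyte marker Rgs5 was at 0 and 0.1 CPM, and Des was at 0 and 8.8 CPM. Pdgfrb stood at 28.9 and 35.3 CPM with reads in 15.6% and 11% of cells, Higd1b at 9.06 and 29.2 CPM, and Notch3 at 15 and 5.8 CPM with reads in 20.3% and 7% of cells. At least 3 of 6 fibroblast markers were found in 9 of 64 and 7 of 100 cells, with summed levels from 0 to 18250 CPM (median 0) and from 0 to 23640 CPM (median 10 CPM). Of 5 fibroblast markers at 20 CPM, 4 were at least 2-fold higher at puberty, against 25.3% of all genes. Endothelial and blood markers ranged from 0 to 870 and from 0 to 120 CPM in sum, Kdr stood at 33.9 CPM at puberty and 0 in the adult, and Ptprc and Cd3e were at 0. Cells with at least 3 fibroblast or 2 pericyte markers in the counts before thinning were left out, which kept 47 and 86 basal-marked cells. Cells with fewer of these markers stayed in. The median of the members was then −0.47 and 3 of 10 were at least 2-fold lower, against 21.6% of genes. Myh11 had a ratio of −1.54, Cnn1 of −1.04 and Lmod1 of −1.09.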

How the data were processed

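The authors deposited 1 table of unnormalized counts for each cell. They had aligned the read pairs to mm10 with Subread and counted them with featureCounts and the RefSeq annotation of Rsubread. Tool versions and the use of strand are not given in the sources used here. Of 27179 identifiers, 25275 matched a current gene of GRCm38.p6. Mitochondrial (15) and ribosomal protein genes (124) were removed, as in the study. The combined table was not used, since the tables of the cells hold the same values. With the cell minimums of the study, fewer cells were retained here than the study shows.

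Counts were thinned without replacement (seed 1), summed per stage and class of cell, and compared as log2 ratios of puberty over adult with a prior of 1 CPM. A gene was called at a 2-fold ratio, over genes at 20 CPM in 1 stage. Shares carry Clopper-Pearson and sums Poisson intervals at 95%, and ratios carry exact conditional intervals with no prior. Per-kilobase levels used the gene lengths of the deposited tables. With 1 sample per stage there was no test. The calculation was tested on simulated counts.

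All members were named. The result of 1 pathway list is not reported here. Of each other pathway list, the 2 highest and the 2 lowest ratios among genes at 20 CPM in basal-marked cells were named, and of genes most like the members the first 10, or 5 for Oxtr. Genes named beyond these rules (Tpm1, Myocd, the markers and the counterparts in the paralog shares) were chosen after their values were seen. The members, lists and rules were chosen with earlier results of these data known. Alternatives were other scalings, priors, depth minimums, adult sets and definitions of basal-marked cells. Software was Python 3.11.15, numpy 2.4.6, scipy 1.17.1, pandas 2.3.3, matplotlib 3.10.9, and edgeR 4.0.16 in R 4.3.3 for TMM factors.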

Additional observations from a re-analysis of the deposited data

How the results depend on the processing

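No paired analysis was possible because the numbers in the titles only name cells, and each stage is 1 sample whose values come from no test. Leaving out replicates was likewise not possible, since no sample below the stage is named.

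Over all retained cells the median log2 ratio of the members was −1.15. It was −1.22 without thinning, −1.27 with TMM factors, −1.26 without each gene's highest cells, −1.34 against adult cells 48 to 188, −0.56 against the other adult cells, −1.32 at a minimum of 200000 read pairs and 2500 genes, and −1.37 without cells holding fibroblast or pericyte markers. It was below 0 in all of these.

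In basal-marked cells the median of the members (−0.36) and the ratio of Oxtr (−0.32) were, in that order, −0.65 and −0.61 without thinning, −0.50 and −0.46 with TMM factors, −0.48 and −0.53 without the highest cells, −0.43 and 0.26 against adult cells 48 to 188, and −0.46 and −1.60 against the other adult cells. They were −0.73 and −0.71 at the higher depth minimum and −0.47 and −0.64 without cells holding fibroblast or pericyte markers. With cells defined by any read of Krt14 or Trp63 they were −0.52 and −0.52, at 1000 CPM −0.31 and −0.67, and at 10 CPM of Trp63 −1.05 and −0.93. The median was −0.23 at 10 CPM of either gene. In cells with Krt8 and Krt18 under 100 CPM (15 pubertal and 9 adult) they were −1.35 and −1.79.

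Further settings were chosen after seeing the data. With Krt14 from 100 to under 1000 CPM the median was 0.18, Oxtr 2.28 and Lmod1 turned from −1.70 to 0.25, and with Krt14 at 1000 CPM or more the median was −0.072. In cells with Krt8 and Krt18 under 100 CPM against adult cells 48 to 188 alone, only 3 adult cells were left, and the median was −1.47 and Oxtr 0.97.

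The count of members at least 2-fold lower (3) was 5 at 10 CPM of Trp63, 5 with Krt8 and Krt18 under 100 CPM, 7 when these were set against adult cells 48 to 188 alone, and 0 with Krt14 from 100 to under 1000 CPM. The background shares were 22.5%, 24.4%, 17.5% and 22.2% of genes. Over the 16 alternative settings Myh11 was below 0 in all 16 and at least 2-fold lower in 15. Lmod1 was below 0 in 15 and at least 2-fold lower in 15, and ranged from −5.98 to 0.25. Cnn1 was below 0 in 16 and at least 2-fold lower in 11. Tagln was below 0 in 16 and Acta2 in 14. Actg2 (0.21) ranged from −1.17 to 2.03 and was below 0 in 3, Mylk (−0.07) from −2.42 to 0.58 (below 0 in 10) and Smtn (0.39) from −1.52 to 2.08 (below 0 in 2).

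The basal-marked share of 37.4% at puberty and 65.8% in the adult was 45.6% and 86.8% at 10 CPM, 62.0% and 96.7% with any read, 15.2% and 44.7% at 1000 CPM, 22.2% and 36.8% by Trp63 at 10 CPM, and 8.77% and 5.92% with Krt8 and Krt18 under 100 CPM. In adult cells 48 to 188 alone it was 75.7% and in the other adult cells 42.2%. The cause of these shifts was not tested. Depth limits a single cell to steps of 10 CPM after thinning.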
